A study of Drosophila melanogaster with 5 samples.

Results

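The genes of the cytosolic ribosome were described in the larval central nervous system (CNS) of Drosophila melanogaster, in controls and after RNA interference against the inositol 1,4,5-trisphosphate receptor (IP3R), the channel that releases calcium from the endoplasmic reticulum. Members were all genes whose symbol begins with RpL or RpS followed by a number, or with RpLP, and that have a row in the deposited edgeR table. Of 92 such symbols 85 had a row, 51 of the large subunit and 34 of the small one, among 9268 genes that had a row and a level above 0 in both groups. Each library came from about 15 pooled CNS dissected at 84 h after egg laying. The 3 control libraries carried UAS-dsitpr and UAS-dicer without a GAL4 driver, and the 2 knockdown libraries carried the same transgenes with ElavC155GAL4. All 5 libraries therefore held both UAS transgenes, and the groups differ in the presence of the driver, a GAL4 insertion in the elav locus that is active in neurons. The study's methods text names another driver, VGN6341-GAL4, and the labels' genotype is used here. The question was which transcripts differ in level between these groups. The driver switches on both transgenes together, so less IP3R, more dicer and the driver itself cannot be told apart in this design.

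Ribosomal proteins assemble with ribosomal RNA into the subunits that translate mRNA, at close to equal numbers of most proteins per ribosome. Their mRNAs are short, are among the most abundant in growing animal cells, and their genes often carry snoRNA genes in their introns. Loss of a single copy of many of these genes gives the Minute phenotype in flies, with slow development and thin bristles. Most are single genes in Drosophila, and several have a second copy that is used mainly in the germ line.

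The deposited tables give 1 value per group and gene, so every level below is the authors' group value, without a spread between libraries, and no difference between the groups was tested. FPKM, mapped fragments scaled to the length of the transcript and to the depth of the libraries, is a level per length and was used to compare genes with each other. The mean normalized count is a number of reads scaled for depth and is not corrected for length. Its sum over all genes was 12.7 M reads in control and 11.9 M reads in knockdown. These sums are taken after scaling and are not the depth of the libraries. Duplicate reads had been removed by the authors before counting, which limits how many reads a short, abundant transcript can keep. The study's methods text gives the reads kept as a minority of those sequenced.

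The targeted gene Itp-r83A had 24.7 FPKM in control and 15.0 FPKM in knockdown, and Dcr-2, the gene of the co-expressed dicer, had 31.3 and 96.7 FPKM. Neuronal markers were present, with nSyb, a synaptic vesicle protein, at 157 and 146 FPKM and elav, the neuronal RNA-binding protein at whose locus the driver sits, at 69.0 and 40.5 FPKM. The other neuronal markers were also lower in knockdown, brp of the active zone with 52.8 and 26.1 FPKM and Syt1 of synaptic vesicles with 67.8 and 56.9. The neuroblast markers dpn and ase were both higher in knockdown, as most members were, with 9.21 and 9.95 FPKM and 44.5 and 51.6 FPKM, and their sum went from 53.7 to 61.6 FPKM. The glial markers repo and Eaat1 had knockdown levels within 2% of control. Markers of other tissues were also present and in sum lower in knockdown, their summed FPKM going from 346 to 214 for 3 muscle genes, from 104 to 34.1 for 3 fat body genes, from 666 to 13.1 for 6 salivary gland genes and from 697 to 75.4 for 4 larval cuticle genes. The exception among these genes was Fbp1 of the fat body, barely present at 0.191 FPKM in control and 0.211 in knockdown. Fewer cells of a type and less RNA per cell cannot be told apart in such bulk samples, and the part of these tissues and of neuroblasts in the results below was not tested.

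In the reads left after duplicate removal, the ribosomal protein genes had high and similar levels. Their median was 203 FPKM in control, with quartiles at 192 and 212 FPKM, and 208 FPKM in knockdown, with quartiles at 196 and 219 FPKM. The median of all 9268 genes was 51.5 FPKM in control and 49.5 FPKM in knockdown, so the members' median was 3.93-fold and 4.21-fold of it. Of the 85 members 82 lay above the 95th percentile of all genes in each group. In control, 70 members had between 180 and 230 FPKM, a range that held 153 of all genes, or 1.65%. The large subunit genes had a median of 205 FPKM and the small subunit genes 200 FPKM. Members together held 3.01% of the summed FPKM of the 9268 genes in control and 3.14% in knockdown. The part of duplicate removal in these levels and shares was not tested.

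**Figure D1:**
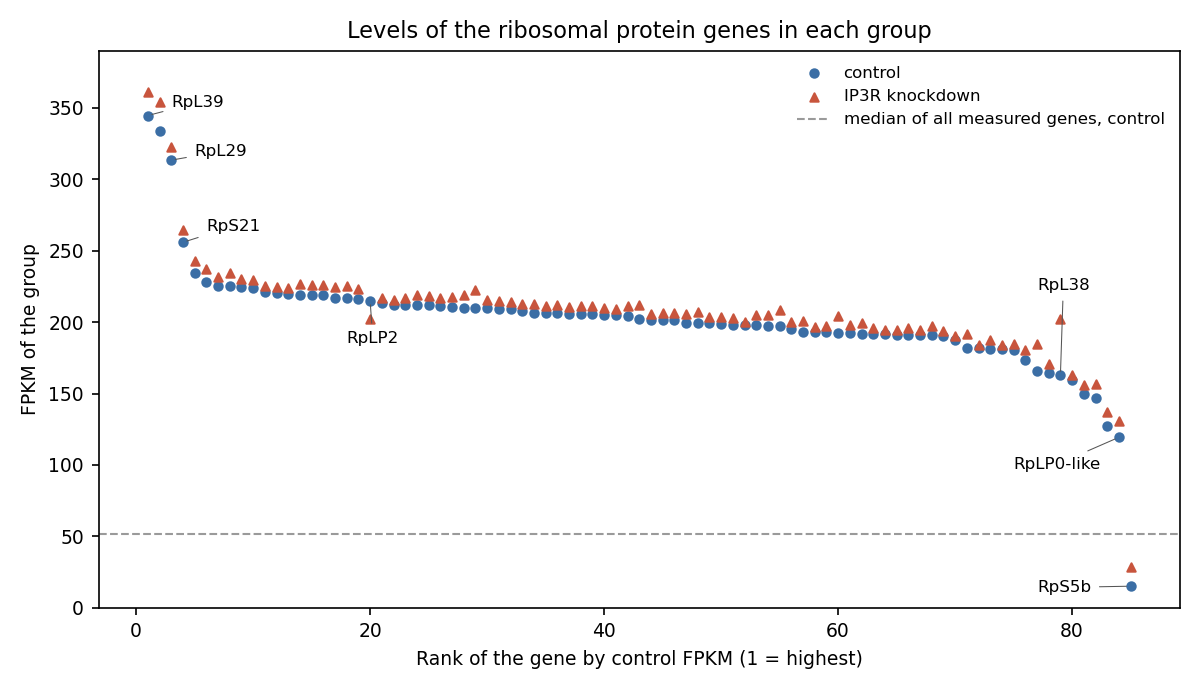
FPKM of the 85 ribosomal protein genes (vertical axis) in control (circles) and IP3R knockdown (triangles), ranked by the control value, each point the authors' value for a group. Most genes lie between 180 and 230 FPKM, RpL39 is highest at 345 and 361 FPKM, RpS5b is lowest at 15.2 and 28.5 FPKM, and the dashed line marks the control median of all measured genes at 51.5 FPKM.

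Only 4 members had more than 250 FPKM in control, and all encode very small proteins. Other small members were lower: RpS29, RpS28b, RpL38 and RpS27, with 56, 65, 70 and 84 residues, had 210, 210, 163 and 166 FPKM. RpL39, a protein of the exit tunnel and the member with the highest FPKM, had 345 FPKM in control and 361 FPKM in knockdown. RpL41, the shortest member with 25 residues, had 334 and 354 FPKM. RpL29 had 313 and 322 FPKM, and RpS21 had 256 and 264 FPKM. RpL35 followed with 234 and 243 FPKM. RpL39 overlaps its neighbour RpL12 on the opposite strand, the deposited table gives both the same locus, and reads from the overlap could not be assigned to a gene here.

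The lowest member was RpS5b, the germ line copy of a protein of the small subunit head, at 15.2 FPKM in control. The next lowest were RpLP0-like at 119 FPKM and RpL7-like at 127 FPKM, both named for their likeness to ribosomal proteins and related to proteins that act in subunit assembly in yeast. RpS15Ab had 147 FPKM and RpL24-like, the relative of another yeast assembly factor, 150 FPKM. Among genes of the ribosome proper with no such name, RpL22 had 160, RpL38 163, RpL17 164 and RpS27 166 FPKM in control. Every one of these but RpS5b had more than the all-gene median of 51.5 FPKM.

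Read numbers ranked the members differently. In mean normalized counts the members' control median was 1220, which was 1.13-fold of the median of all genes at 1077, and the members held 0.908% of the counts of the 9268 genes in control and 1.02% in knockdown. The highest was RpL4, a long protein of the exit tunnel, with a count of 2820 in control and 2891 in knockdown. RpL39 and RpL41, first and second in FPKM, had counts of 536 and 701 in control. Across the 84 members other than RpS5b, the log2 control count followed the log2 coding length with a Pearson r of 0.855. Against log2 exon length the r was 0.680 for the count and -0.535 for log2 FPKM, which went the other way. With RpS5b included these 2 values were 0.525 and -0.266, and over 9141 other genes they were 0.539 and -0.218. These are descriptions across genes, which share the same libraries and are not independent.

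**Figure D2:**
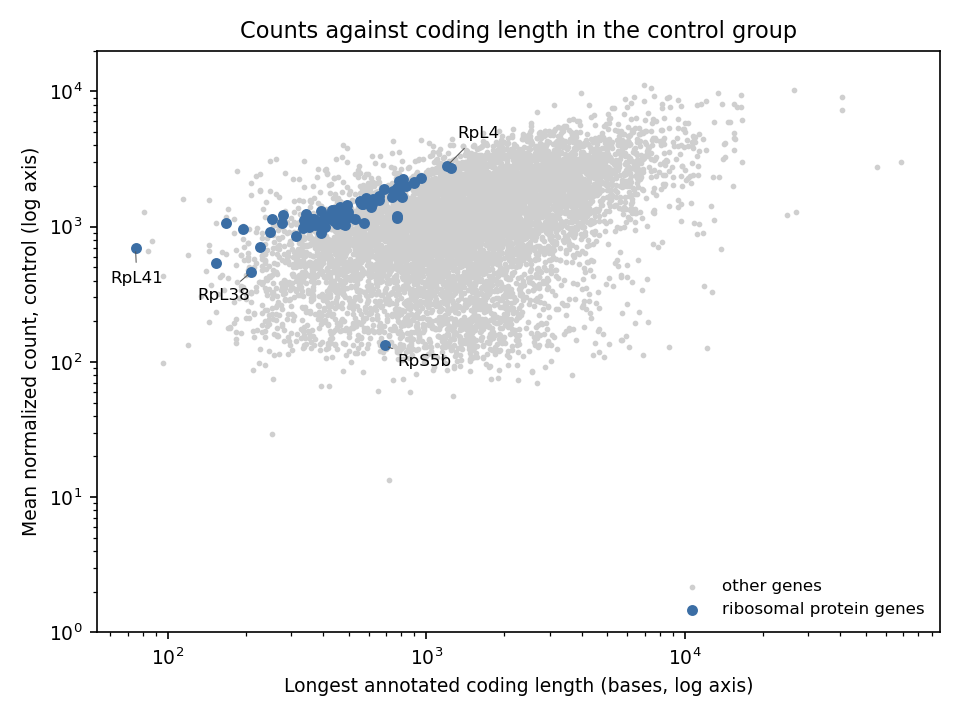
Mean normalized count in the control group (vertical log axis) against the longest annotated coding length in bases (horizontal log axis) for the ribosomal protein genes (large points) and the other measured genes (small points), each point 1 gene. The ribosomal protein genes form a narrow rising band along the upper edge at short coding lengths, from RpL41 with a count of 701 to RpL4 with 2820, and RpS5b lies below it at 133.

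Divided by exon length, the members' control counts came to a median of 1.499 reads per exon base, with quartiles at 1.24 and 1.71 and a highest value of 2.19 in RpL41. The other genes had a median of 0.485. At least 1 read per exon base was seen in 75 of the 85 members and in 12.3% of the other genes, and at least 2 in 9 members and 6 other genes. The members' exons are short, with a median of 927 bases against 2217 in the other genes, and their proteins have a median of 156 residues. The part of duplicate removal in this narrow range was not tested.

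Between the groups the members' values after duplicate removal lay close together, and nearly all were slightly higher in knockdown. The ratio of knockdown to control was above 1 in 84 of the 85 members in FPKM and in 84 in mean normalized counts, against 54.3% and 55.6% of all genes. Other genes with a like level, 150 to 250 FPKM in control, were above 1 in 82.1% of cases in FPKM and 83.4% in counts, with a median log2 FPKM ratio of 0.06 against 0.04 in the 76 members of that range. The median log2 ratio of all members was 0.04 in FPKM and 0.06 in counts, against 0.02 and 0.03 for all genes. In FPKM 81 members had a ratio between 1 and 1.1, as did 30.1% of all genes. The large and small subunit genes each had a median log2 ratio of 0.04 in FPKM, and the 14 members on the X chromosome had 0.0453 against 0.0393 for the 71 autosomal members, an order that was reversed in counts with 0.0590 against 0.0630. Whether so small a difference exceeds the spread between libraries could not be asked of group values, and centring on the median of all genes left a median log2 ratio of 0.02. Relative to that median, 79 members were higher in FPKM and 83 in counts, so the direction of a few members, RpS3 and RpL3 among them, depended on the scaling.

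The study's minimum fold, a difference of 25% of the control value, was used to count larger differences. In FPKM 1 member, RpS5b, was higher in knockdown by 25% or more, as were 7.82% of all genes. In counts 2 members were, RpS5b and RpL38, and 7.07% of all genes. None was lower by 25% or more in either measure, where 14.6% of all genes were in FPKM and 13.8% in counts. The members' share past either fold was therefore below that of all genes, a share that varied with level. Of the other genes with 150 to 250 FPKM in control, 0.664% were higher by 25% or more and 10.3% were past either fold. Up to 25 FPKM, the range of RpS5b, 20.8% of the other genes were higher by 25% or more.

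**Figure D3:**
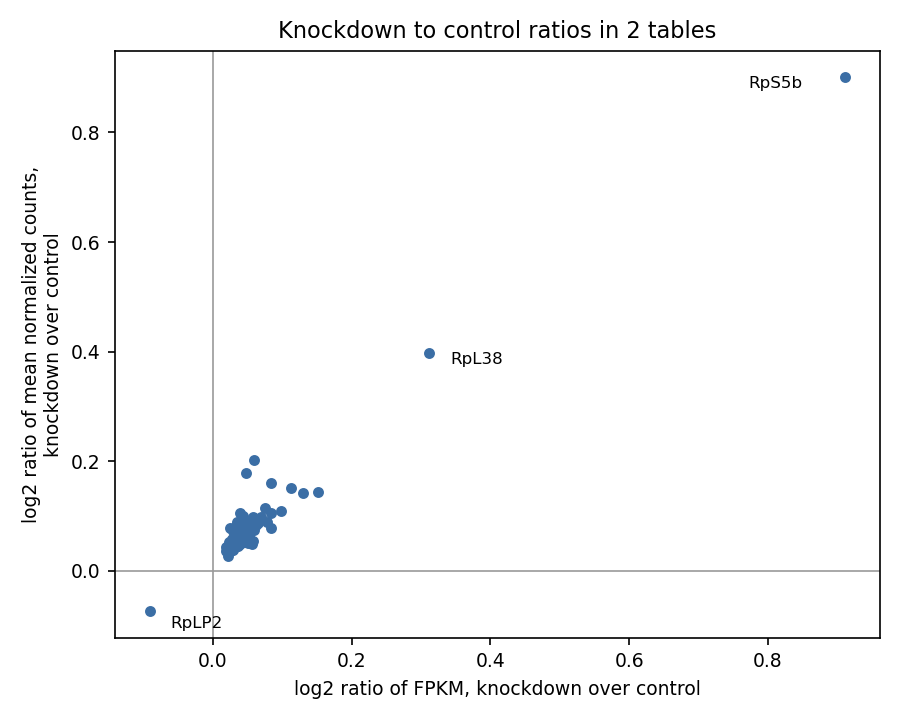
Log2 ratio of knockdown to control in mean normalized counts (vertical axis) against the same ratio in FPKM (horizontal axis) for the 85 ribosomal protein genes, each point 1 gene. All but RpLP2, at lower left, lie above 0 on both axes, and RpL38 and RpS5b stand apart at the upper right with FPKM ratios of 1.24 and 1.88.

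RpS5b (FBgn0038277, dm6 chromosome 3R, 14900432 to 14901563, minus strand) had 15.2 FPKM in control and 28.5 FPKM in knockdown, a ratio of 1.88. Its mean normalized count went from 133 to 247, a ratio of 1.87. It was thus the member with the lowest level in both groups and the highest ratio. Several markers of the germ line were also higher in knockdown. The RNA helicase of germ cells vas had 9.87 and 14.3 FPKM, bam, a differentiation factor of germ line cysts, 9.55 and 16.9, and aub, a Piwi protein, 4.24 and 6.38. Of the 5 germ line markers 4 were higher in knockdown, with zpg at 0.243 and 0.297 FPKM and nos, the exception, at 0.294 and 0.168, and their sum went from 24.2 to 38.0 FPKM. The part of germ line RNA in the RpS5b values was not tested.

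RpL38 (FBgn0040007, dm6 chromosome 2R, 4515388 to 4516458, minus strand), a small protein of the large subunit whose gene lies in the pericentric part of the arm, had 163 FPKM in control and 202 FPKM in knockdown, a ratio of 1.24. Its count went from 462 to 608, a ratio of 1.32. Its control count was the second lowest of the members, and its knockdown FPKM was in the range of most other members. RpS27 came next in FPKM, from 166 to 184, a ratio of 1.11, followed by RpLP0-like from 119 to 131 and RpL7-like from 127 to 137, with ratios of 1.09 and 1.08. These 5 genes with the highest ratios were all among the 9 lowest in control FPKM, a value that also enters the ratio.

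RpLP2 (FBgn0003274, dm6 chromosome 2R, 16586129 to 16586732, plus strand), an acidic protein of the stalk that recruits elongation factors, was the only member lower in knockdown. It had 215 FPKM in control and 202 FPKM in knockdown, a ratio of 0.939, and counts of 1023 and 972, a ratio of 0.950. The other stalk proteins did not share the direction, RpLP0 having 180 and 185 FPKM and RpLP1 212 and 216. The next lowest ratios, in RpS3, RpL3, RpL7A and RpL23A, were between 1.013 and 1.016 in FPKM.

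Ratios in counts also varied with gene size. The 8 members with coding lengths of up to 252 bases had count ratios from 1.05 to 1.32, and the 15 members with 750 bases or more had ratios from 1.02 to 1.11. The count of RpS29, singled out after its values were seen, went from 1062 to 1221, a ratio of 1.15, with FPKM of 210 and 219. Across the 84 members other than RpS5b the r of log2 coding length with the log2 count ratio was -0.393, and it was -0.368 without RpL38. In the 1325 other genes with exon lengths in the members' quartile range, the median log2 FPKM ratio was 0.13, higher than in the members, at a control median of 72.2 FPKM.

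The ratios differed less between members than between other genes of a like level. Among genes with 150 to 250 FPKM in control, the log2 FPKM ratio had a quartile width of 0.0203 over 76 members and of 0.0701 over 301 other genes. The width over other genes was larger at lower levels, 0.119 at 100 to 150 FPKM, 0.232 at 50 to 100 and 0.749 up to 25 FPKM. It was also large above 250 FPKM, 0.566 over 23 other genes, of which 34.8% were past either fold. Of the 20 genes with the highest control FPKM, 16 were small RNA genes by name, so this range is not a like set. None of the 76 members and 10.3% of the 301 other genes were past either fold, and 0.664% of these others were higher by 25% or more. Some tissue markers had control levels in this range and were lower in knockdown by more than 25%. These were ng1, ng2 and ng3 of the salivary gland, Lcp3 and Lcp4 of the cuticle and Act57B of muscle. With 75 of the 85 members at 1 or more reads per exon base after duplicates were removed, the part of that step in the size and the spread of these ratios was not tested.

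**Figure D4:**
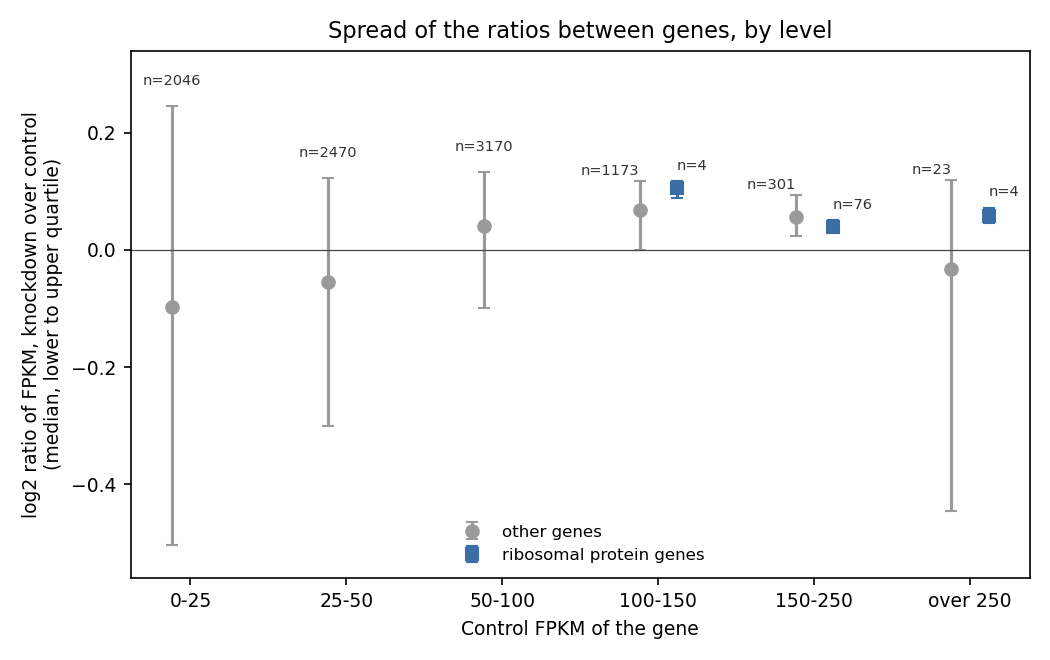
Median log2 FPKM ratio of knockdown to control (points) with the lower to upper quartile over genes (bars), by control FPKM, for the ribosomal protein genes (squares) and the other genes (circles); n is the number of genes, and RpS5b, alone in its range, is not drawn. The bars of the other genes shorten up to 150 to 250 FPKM and are long again above 250, and at 150 to 250 FPKM the bar of the members is shorter, 0.0203 against 0.0701.

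The members are given next by role. The fusions with ubiquitin or a ubiquitin-like protein, RpL40, RpS27A and RpS30, had 212, 211 and 225 FPKM in control and 218, 217 and 232 in knockdown. RpL5 and RpL11, which bind 5S ribosomal RNA before joining the large subunit, had 181 and 198 FPKM in control and 188 and 203 in knockdown. RpL5 is also the member with the longest exons, 3835 bases. Around the peptidyl transferase centre, RpL3, RpL8 and RpL10 had 182, 191 and 193 FPKM in control and 184, 194 and 201 in knockdown. RpS2, RpS3, RpS15 and RpS23, near the decoding site and the mRNA entry, had 193, 198, 197 and 220 FPKM in control and 196, 200, 208 and 224 in knockdown. Of the 7 exit tunnel proteins, RpL17 was lowest at 164 and 171 FPKM and RpL39 highest, RpL4, RpL23A, RpL26, RpL31 and RpL35 lying between 181 and 234 FPKM in control. RpS6, the substrate of S6 kinase, had 191 and 195 FPKM. RpL32, widely used as a reference in fly qRT-PCR as rp49, had 224 and 230 FPKM, a log2 ratio of 0.04.

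In the reads left after duplicate removal, paralog pairs fell into 2 kinds. The part of that step in the differences and shares within pairs was not tested. In the first kind both copies were abundant. RpS14a and RpS14b lie in tandem on the X chromosome (7933742 to 7934677 and 7934898 to 7935792, both on the plus strand) and had 193 and 203 FPKM in control and 197 and 212 in knockdown. RpL34a and RpL34b had 191 and 213 FPKM in control and 197 and 217 in knockdown. RpS15Aa exceeded RpS15Ab, with 198 against 147 FPKM in control and 205 against 157 in knockdown. The assembly factor relatives were also abundant beside their namesakes: RpL24-like had 150 and 156 FPKM against 173 and 181 for RpL24, and RpL7 had 192 and 196 FPKM and RpLP0 180 and 185 against the lower values of their relatives given above. Reads of near-identical copies can be split between them in counting, so the values within a pair such as RpS14a and RpS14b are uncertain.

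In the second kind a single copy carried nearly all of the level. RpS5a had 192 and 198 FPKM, and RpS5b made up 7.30% of the summed FPKM of the pair in control and 12.6% in knockdown. RpS19a had 211 and 218 FPKM against 7.997 and 10.9 for RpS19b, and RpL22 had 160 and 163 against 1.44 and 1.79 for RpL22-like, both minor copies known from the germ line. RpS28b had 210 and 222 FPKM, against 3.10 and 4.47 for RpS28a and 0.318 and 0.542 for RpS28-like. RpS10b had 195 and 200 FPKM against 2.42 and 2.69 for RpS10a, and RpL37a had 221 and 225 against 0.279 and 0.631 for RpL37b. RpL10Ab had 207 and 213 FPKM, and RpL10Aa was listed at 0 in both groups. The 7 symbols without an edgeR row were all minor copies of this kind.

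Of the 8 minor copies, RpS5b included, 7 had a higher FPKM in knockdown and 6 a higher count, where 54.3% of all genes and 42.5% of the other genes of up to 25 FPKM had a higher FPKM. RpS10a was the copy whose measures disagreed, its count going from 69.3 to 62.7. An FPKM higher by 25% or more was seen in 5 of them, against 7.82% of all genes and 20.8% of the other genes of up to 25 FPKM. Some of the 5 rest on few reads: the counts of RpS28a were 3.72 and 7.87 and those of RpL37b 0.705 and 1.61. The genes behind these shares all had an edgeR row, which every minor copy but RpS5b lacks, so they are not a like background.

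**Figure D5:**
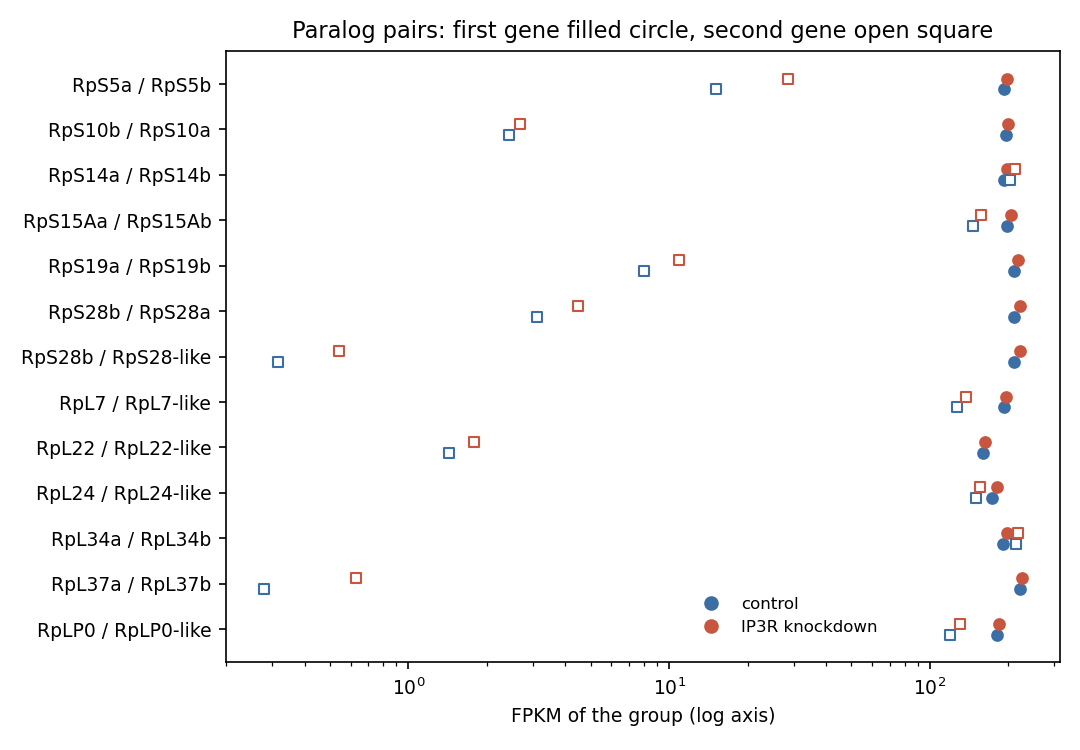
FPKM (horizontal log axis) of the first gene (filled circle) and the second gene (open square) of each paralog pair in control and IP3R knockdown, each symbol the authors' value for a group; RpL10Aa, listed at 0, is not drawn. In 7 pairs the second gene lies far below the first, from RpS5b at 15.2 and 28.5 FPKM down to RpL37b at 0.279 and 0.631, and elsewhere both copies exceed 100 FPKM.

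The members lie on all major chromosome arms, 18 on 2L, 19 on 2R, 14 on 3L, 19 on 3R and 14 on the X chromosome, and 1, RpS3A, on chromosome 4 (65225 to 67207, minus strand). RpS3A had 182 and 192 FPKM, a log2 ratio of 0.07, where the median over the genes of chromosome 4 was 0.24. In the annotation 28 members carry 74 snoRNA genes within their spans, RpS5a alone 14 of them. Host members had a control median of 199 FPKM and the others 206 FPKM. Exons of 31 members overlap exons of another gene, and reads there cannot be assigned with certainty.

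Other genes of translation gave a frame for these levels. The ribosomal proteins that the symbol rule leaves out, sta of the small subunit and Rack1, a scaffold on the small subunit head, had 185 and 190 FPKM in control and 186 and 195 in knockdown, within the range of the members. The 7 elongation factor genes had a control median of 173 FPKM and a median log2 ratio of 0.05, with Ef1alpha48D, which delivers aminoacyl-tRNA, at 182 and 186 FPKM and EF2, the translocase, at 173 and 175. None of them passed either fold. Of 24 genes of initiation factors and the poly(A) binding protein, with a control median of 126 FPKM, eIF-4B was higher in knockdown with a ratio of 1.30 and eIF4G2 lower with 0.512. Of 19 genes of ribosome assembly and rRNA synthesis, with a median of 92.6 FPKM, Tif-IA, a factor of RNA polymerase I, had a ratio of 1.42 and none was lower by 25% or more. Among all genes 7.82% were higher and 14.6% lower by 25% or more in FPKM.

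The 72 genes of mitochondrial ribosomal proteins had a control median of 105 FPKM and a median log2 ratio of 0.14, against 203 FPKM and 0.04 for the cytosolic members. A difference of 25% or more was seen in 3 of them, all higher in knockdown, mRpL33 with 1.48, mRpS21 with 1.40 and mRpS5 with a ratio of 1.29. Among all genes 7.82% were higher by 25% or more. The 1325 other genes with exon lengths in the cytosolic members' quartile range, some of these mitochondrial genes included, had a median log2 ratio of 0.13. The control counts per exon base of the 72 mitochondrial genes had a median of 0.958. The difference between the cytosolic and mitochondrial genes was not tested.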

How the data were processed

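RNA-seq libraries came from larval CNS, 3 control and 2 IP3R knockdown, grouped by the labels. For the authors' tables, TopHat placed the reads on dm6, Samtools took out duplicates and reads were counted per gene. The submitters' processing notes give, for what the authors ran, TopHat2 2.0.11 and Cuffdiff 2.2.0, and name CASAVA, DESeq and edgeR. The deposited CuffDiff table holds FPKM per group. In the authors' DESeq table are normalized counts averaged over each group, a signal that need not be whole. The edgeR table deposited by the authors holds a log2 mean expression, used only to describe the gene set. Their log2 fold changes, test statistics, p-values and q-values were not used. The columns of the authors' DESeq table were assigned to groups because its overall mean weights them as 3 and 2 libraries in every gene. The number of columns with values per library is 0, so no test, interval or left-out library was possible. The depth of each library is not known from these values, and the sums of mean normalized counts do not give it.

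Genes were joined by symbol in Python 3.11.15 (pandas 2.3.3, numpy 2.4.6, matplotlib 3.10.9), and knockdown over control ratios were computed from the group values, with a fold rule of 25% and no pseudocount. Only the ratio, the fold rule and the median were tried on simulated group values with known ratios. The steps that joined and annotated the genes were not part of that check. Places and lengths came from Ensembl release 115, with older symbols matched through RefSeq synonyms, and exon lengths were found for 99.5% of the 9268 genes. Named genes were the paralog pairs, the role groups, the 5 members highest and lowest in control FPKM and in FPKM ratio, and the checks of the labels. Members and lists were chosen with earlier results of these data known. Alternatives were the count table, a pseudocount or minimum of 1 FPKM, centring, other folds, other denominators and leaving out groups of members.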

Additional observations from a re-analysis of the deposited data

How the results depend on the processing

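The direction of the members' median log2 ratio held under every alternative run, and its size did not: it was 0.0404 in FPKM, 0.0626 in mean normalized counts, 0.0403 with a pseudocount of 1 FPKM, 0.0178 when centred on the median of all genes, 0.0386 without the paralog pairs, 0.0393 without X-linked members and 0.0390 without RpL7-like, RpL24-like and RpLP0-like, the last an alternative chosen after seeing the data. The number of members higher by 25% or more was 1 in FPKM, 2 in counts and 0 without the paralog pairs, and no alternative gave a member lower by 25% or more. The members' share of the summed level depended on the unit. In control it was 3.01% in FPKM, 0.908% in counts, 2.78% over all genes of the table, 3.07% without the 10 highest other genes and 2.75% without the 5 most abundant members, and in knockdown these shares were 3.14%, 1.02%, 2.90%, 3.20% and 2.88%. Counts per base had a control median of 1.499 over all exons, and 1.54 and 2.01 over the longest and the shortest transcript, both added after seeing the data. No paired analysis was possible because the tables hold no value per library, and leaving out each library in turn could not be run for the same reason. No interval or detection limit was set for low values such as those of the minor copies, since the tables give group means and not the reads of a library.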
